A study of Rattus norvegicus with 6 samples.

Results

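Matrix metalloproteinases are zinc enzymes that cut the proteins of the extracellular matrix, and tissue inhibitors of metalloproteinases (TIMPs) block them. The genes described here are 7 rat metalloproteinases (Mmp2, Mmp3, Mmp7, Mmp12, Mmp13, Mmp14 and Mmp19) and 3 inhibitors (Timp1, Timp2 and Timp3), found by symbol. All 10 were among the 32623 genes of the deposited table, each on a single row. Expression was measured by RNA sequencing of rat liver in 2 groups of 3 libraries. The HCC group belonged to a hepatocellular carcinoma study and was left untreated, as the control. The TAE group had undergone transarterial embolization, a procedure that blocks the arteries feeding a liver tumour. The labels give no strain, age, sex, tumour model, time after embolization or position of the sample relative to the tumour, and all 6 libraries are labelled liver alone. Whether the 3 biosamples of a group were 3 animals is not said in the labels, and p-values therefore measure nothing beyond how far these libraries spread, which may be technical spread.

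Metalloproteinases are made as inactive zymogens, and other proteases, such as plasmin, or other metalloproteinases remove the propeptide. Mmp14 sits in the plasma membrane, and together with Timp2 it activates the gelatinase made from Mmp2, so that an inhibitor gene also belongs to an activation step. In injured liver, stellate cells and fibroblasts are known sources of Mmp2, Timp1 and Timp2, and macrophages are the best known source of Mmp12.

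Values are FPKM, the count of a gene scaled to its exon length and to the library total, which ran from 13448286 to 16604067. Being per length, they can be compared between genes of a library. Between libraries they also move with how much of the total a few abundant genes take up. Values scaled by TMM factors, which allow for this, are given for the 10 genes where they change the reading. Changes are log2 differences, TAE minus HCC, from edgeR's quasi-likelihood test on the counts, with p adjusted by Benjamini-Hochberg over all 14499 genes tested and a threshold of 0.05. All 10 genes had enough counts to be tested. The TAE libraries varied more than the HCC libraries. Across genes, which are not independent replicates, the Pearson correlation of log2-transformed counts scaled to the library total was 0.984 to 0.991 between HCC replicates and 0.935 to 0.969 between TAE replicates. TAE replicate 2 lay as close to the HCC libraries (0.967 to 0.969) as to TAE replicate 1 (0.969) and farther from TAE replicate 3 (0.935), and results that rest on it are given with and without it. As a check of the labelled tissue, the 7 hepatocyte markers summed to 15163 to 19619 FPKM in HCC and 6573 to 18189 FPKM in TAE, and none of them was at 0.

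Mmp13, Mmp12, Mmp3 and Mmp7 are neighbours in the genome. They lie in that order on chromosome 8, at 5522739 to 5901049 in the deposited table, in a run of 10 metalloproteinase genes over 378 kb with no other gene of the table inside it. Their promoters are shown because they share 2 short motifs while their levels in these libraries did not go together. RefSeq promoter sequences (build GRCr8) were matched for 7 of the 10 genes, all except Mmp2, Mmp14 and Mmp19. Each line below holds the 100 bases before the start of the gene on the plus strand, 5′ to 3′, with matches to TGANTCA, the AP-1 motif bound by Fos and Jun proteins, and to TATAAA, the TATA box, in capitals.
Mmp13: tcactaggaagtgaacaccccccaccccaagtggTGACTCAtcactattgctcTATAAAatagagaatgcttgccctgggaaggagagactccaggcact
Mmp12: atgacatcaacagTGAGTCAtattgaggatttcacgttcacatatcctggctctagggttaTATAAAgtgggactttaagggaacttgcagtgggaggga
Mmp3: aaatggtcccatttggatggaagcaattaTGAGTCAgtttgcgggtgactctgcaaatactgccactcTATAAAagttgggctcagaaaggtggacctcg
Mmp7: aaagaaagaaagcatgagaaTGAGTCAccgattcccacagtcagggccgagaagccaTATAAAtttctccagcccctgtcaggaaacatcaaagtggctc
These windows are chr8:12782729-12782828, chr8:12866552-12866651, chr8:12925181-12925280 and chr8:13132943-13133042. The AP-1 match began 66, 87, 71 and 80 bases before the start in Mmp13, Mmp12, Mmp3 and Mmp7, and the nearest TATA match followed it at 47, 39, 32 and 43 bases. Over the 250 bases before the start, searched on both strands, TGANTCA occurred in 4 of the 7 promoters and in 6.34% of all 33469 promoters, TATAAA in the same 4 and in 12.9%, and both together in 1.02% of all promoters. ACGTG, the core of the hypoxia response element, occurred in Mmp12 and Mmp13 and in 16.6% of all promoters. Timp1, Timp2 and Timp3 held none of these letters in this window. A match is a description of the sequence and does not show that a factor was bound.

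Mmp12, the macrophage elastase, was higher after embolization and was the only gene of the 10 to pass the test. It stood at 5.56, 5.69 and 4.66 FPKM in HCC replicates 1, 2 and 3 and at 18.5, 14.7 and 20.1 FPKM in TAE replicates 1, 2 and 3. The HCC libraries were close together, and the lowest TAE library was far above the highest HCC library. The mean went from 5.30 ± 0.561 to 17.8 ± 2.74 FPKM (SD, n = 3 per group). The log2 change was 1.71 ± 0.23 (SE; edgeR adjusted p = 0.0388), or 3.28-fold, and the gene (ENSRNOG00000030187) ranked 34 of all tested genes by p. Over all genes, 437 of 14499 passed (3.01%), and 2.7% passed as higher in TAE, so that 1 call among 10 genes is a small number to set beside the background. The call was lost without HCC replicate 1, 2 or 3 or TAE replicate 1 (edgeR adjusted p = 0.186, 0.142, 0.223 and 0.145) and held without TAE replicate 2 or 3 (0.00413 and 0.0140). The log2 change was 1.51 to 1.90 over 19 alternatives, with adjusted p from 1.01e-14 to 0.223, and DESeq2 called Mmp12 in all libraries and without any single one of them.

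**Figure D1:**
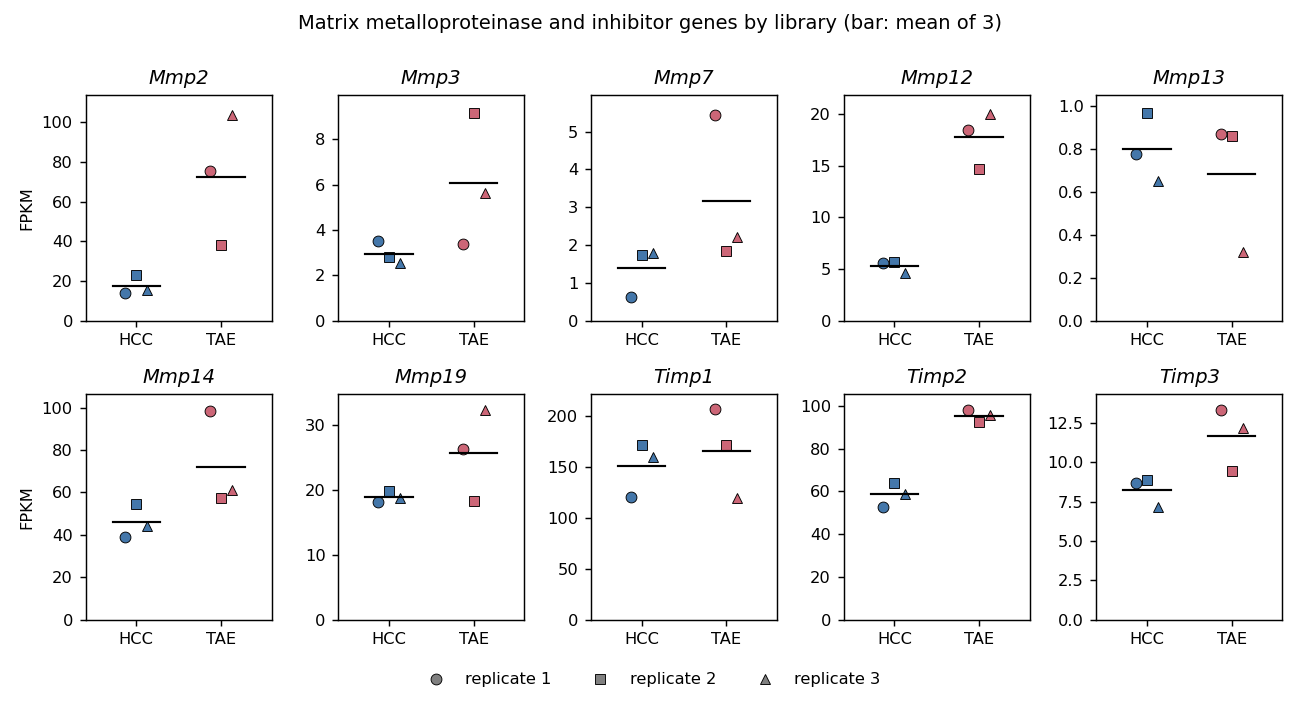
FPKM of the 10 genes in each library, with HCC on the left and TAE on the right of each panel, marker shapes for replicates 1 to 3, a bar at the mean of 3, and axes from 0 that differ between panels. The 3 TAE points of Mmp12 (14.7 to 20.1 FPKM) and of Timp2 (92.3 to 98.1 FPKM) lie close together above HCC, whereas those of Mmp2 spread from 38.1 to 104 FPKM.

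Mmp2, the gelatinase that cleaves denatured collagen and type IV collagen, had the largest log2 change of the 10 but did not pass. It stood at 14.1, 23.2 and 15.3 FPKM in HCC replicates 1 to 3 and at 75.3, 38.1 and 104 FPKM in TAE replicates 1 to 3. Every TAE library was above every HCC library, but the TAE libraries differed among themselves by more than the HCC mean of 17.5 ± 4.94 FPKM (SD, n = 3). The TAE mean was 72.4 ± 33.0 FPKM, and the log2 change was 2.05 ± 0.44 (edgeR adjusted p = 0.0534). It passed without TAE replicate 2 (log2 change 2.40, edgeR adjusted p = 0.00542) or without TAE replicate 3 (1.59, 0.0339), and with DESeq2 on all libraries (adjusted p = 0.000112). DESeq2 also called Mmp2 without any single library. In edgeR it did not pass without HCC replicate 1, 2 or 3 or TAE replicate 1 (adjusted p = 0.219, 0.145, 0.235 and 0.160). It passed in 12 of 19 alternatives, and the adjusted p ran from 6.06e-13 to 0.235.

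Mmp14, the membrane-bound protease that activates the Mmp2 zymogen, was the most abundant of the 7 proteases in HCC. Its values were 39.0, 54.6 and 44.2 FPKM in HCC and 98.3, 57.3 and 61.0 FPKM in TAE, in order of replicate. TAE replicate 1 stood apart, and the other TAE libraries were only just above the highest HCC library. The log2 change was 0.60 ± 0.24 (edgeR adjusted p = 0.203), and 0.35 without TAE replicate 1 (edgeR adjusted p = 0.464). Without TAE replicate 2 it was 0.80 and passed (0.0332, within a range of 0.00486 to 0.571 over 19 alternatives). With TMM-scaled counts the groups overlapped, since TAE replicate 2 (124 CPM, counts scaled to a common library total) was below HCC replicate 2 (135). In FPKM, Mmp14 made up 47.7% to 50.3% of the sum of the 7 proteases in the HCC libraries and 27.1% to 43.1% in the TAE libraries. The share of Mmp2 was 17.2% to 21.3% in HCC and 27.2% to 46.1% in TAE, so that Mmp2 exceeded Mmp14 in TAE replicate 3 alone.

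The stromelysin Mmp3, which cleaves many matrix proteins and activates other metalloproteinases, was low and uneven. It stood at 3.50, 2.83 and 2.53 FPKM in HCC and at 3.38, 9.15 and 5.64 FPKM in TAE. The order of the TAE libraries was the reverse of that for Mmp14 at its ends: TAE replicate 2 was the highest for Mmp3, and TAE replicate 1 lay within the HCC range. Its log2 change of 0.97 ± 0.35 did not pass (edgeR adjusted p = 0.167). Without TAE replicate 2, its highest library, the log2 change was 0.67 (adjusted p = 0.177 in edgeR and 0.187 in DESeq2). Without TAE replicate 1, it was 1.26 and passed in DESeq2 (adjusted p = 0.00296) but not in edgeR (0.145). Of 18 alternatives that was the only one in which it passed, and the adjusted p ran up to 0.436.

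Mmp7, matrilysin, a small protease made by epithelia, was near the lower end of what these libraries measure, with 10 to 28 reads per library in HCC and 34 to 88 in TAE. It stood at 0.63, 1.74 and 1.78 FPKM in HCC and 5.44, 1.84 and 2.22 FPKM in TAE. TAE replicate 1 was high, while TAE replicate 2 was just above 2 of the HCC libraries in FPKM. With TMM-scaled counts TAE replicate 2 (1.82 CPM) was below HCC replicates 2 and 3 (1.96 and 2.05 CPM), so the groups overlapped. A log2 change of 1.13 ± 0.56 resulted, which did not pass (edgeR adjusted p = 0.273). Without TAE replicate 1 the log2 change was 0.54 (edgeR adjusted p = 0.605). Without TAE replicate 2 it was 1.45 and did not pass in edgeR (0.0896) but did in DESeq2 (0.0497), within a range of 0.0497 to 0.701 over 18 alternatives.

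Mmp13, the main interstitial collagenase of rodents, was the only one of the 10 genes with a negative log2 change, and it had the lowest level. It stood at 0.78, 0.97 and 0.65 FPKM in HCC and 0.87, 0.86 and 0.32 FPKM in TAE, from 14 to 37 reads per library. The groups overlapped, with a log2 change of -0.31 ± 0.38 (edgeR adjusted p = 0.629), and of -0.0070 without TAE replicate 3, its lowest library. Mmp19, a secreted metalloproteinase, stood at 18.2, 19.8 and 18.8 FPKM in HCC and 26.3, 18.3 and 32.4 FPKM in TAE. In FPKM, TAE replicate 2 was at the HCC level and the other TAE libraries were above it. With TMM-scaled counts TAE replicate 2 (32.5 CPM) was below all HCC libraries (36.6, 40.4 and 39.0 CPM). The log2 change was 0.42 ± 0.27 (edgeR adjusted p = 0.369), and without TAE replicate 3, its highest library, it was 0.12 (0.733). It passed without TAE replicate 2 (0.67, edgeR adjusted p = 0.0339, within a range of 0.0122 to 0.852 over 19 alternatives).

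Of the inhibitors, Timp1, which blocks most secreted metalloproteinases, had the highest level of the 10 genes and showed no difference between groups beyond the spread of the libraries. It stood at 121, 171 and 160 FPKM in HCC and at 206, 172 and 119 FPKM in TAE. In FPKM, the highest and the lowest of the 6 values were both TAE libraries, replicates 1 and 3. With TMM-scaled counts the lowest was HCC replicate 1 (89.9 CPM), below TAE replicate 3 (99.0 CPM). The means were 151 ± 26.4 and 166 ± 43.7 FPKM (SD, n = 3 per group), and the log2 change was 0.07 ± 0.20 (edgeR adjusted p = 0.850). Its sign turned without HCC replicate 1 (-0.08) or TAE replicate 1 (-0.10).

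Timp2, the inhibitor that takes part in the activation of Mmp2, had the narrowest spread of the 10 genes over the TAE libraries in FPKM, relative to its mean. It stood at 52.9, 64.0 and 58.8 FPKM in HCC and at 98.1, 92.3 and 95.6 FPKM in TAE. All TAE libraries were above all HCC libraries. They were less alike with TMM-scaled counts, at 156, 136 and 178 CPM in TAE and 88.3, 108 and 101 in HCC, and the groups were apart there too. The means were 58.6 ± 5.58 and 95.4 ± 2.92 FPKM (SD, n = 3 per group). The log2 change of 0.66 ± 0.15 did not pass (edgeR adjusted p = 0.0604) but did with DESeq2 (adjusted p = 0.00354) and in edgeR without TAE replicate 2 (0.0123) or TAE replicate 3 (0.0393), within a range of 0.000188 to 0.249 over 19 alternatives. Timp3, which binds to the matrix and also inhibits ADAM proteases, stood at 8.68, 8.89 and 7.16 FPKM in HCC and 13.3, 9.42 and 12.2 FPKM in TAE. In FPKM, TAE replicate 2 was just above the highest HCC library. With TMM-scaled counts TAE replicate 2 (14.6 CPM) was below HCC replicates 1 and 2 (15.3 and 15.8 CPM), so the groups overlapped. The log2 change was 0.46 ± 0.22 (edgeR adjusted p = 0.261), and it passed without TAE replicate 2 (0.65, edgeR adjusted p = 0.0285, within a range of 0.00822 to 0.637 over 19 alternatives).

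Each inhibitor gene overlaps another gene of the deposited table. Timp1 lies on the strand opposite to Syn1 and Timp3 opposite to Syn3, both synapsin genes, and Timp2 lies on the same strand as Cep295nl. The counts of these partners were 10 to 38, 2 to 16 and 19 to 85 per library. Those of Timp1 were 1284 to 2220, those of Timp3 177 to 353 and those of Timp2 1262 to 2637. Whether the counting used strand, and how it treated reads in the shared stretches, is not given in the sources used here. Any effect of the overlap on the inhibitor counts was not tested.

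**Figure D2:**
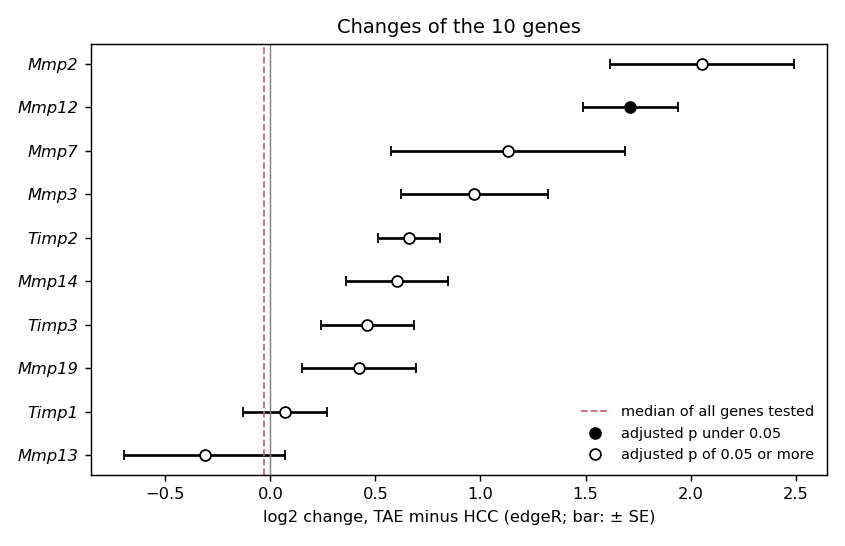
Log2 change of each gene, TAE minus HCC, with its SE as a bar, ordered by size, and a dashed line at the median of all genes tested (-0.03). Mmp12 (filled) passed the adjusted threshold. Mmp2 has the largest change of 2.05 with an SE of 0.44, and the widest bar is that of Mmp7 (SE 0.56).

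Counted together, 9 of the 10 log2 changes were positive, with a median of 0.63, against a median of -0.03 over all genes tested. In FPKM, all TAE libraries were above all HCC libraries for 6 genes (Mmp2, Mmp7, Mmp12, Mmp14, Timp2 and Timp3), as they were for 21.9% of the genes tested, and the groups were apart in either direction for 27.5%. With counts scaled by TMM factors the number was 3 (Mmp2, Mmp12 and Timp2), where 18.6% of the genes tested were apart and higher. DESeq2 called 3 of the 10 (Mmp2, Mmp12 and Timp2), where it called 12.2% of all genes. Without TAE replicate 2, edgeR called 6 (Mmp2, Mmp12, Mmp14, Mmp19, Timp2 and Timp3), where it called 24.2% of all genes, and without TAE replicate 3 it called 3 (Mmp2, Mmp12 and Timp2), where it called 8.33%. It called none of the 10 without HCC replicate 1, 2 or 3 or TAE replicate 1, when it called 0, 1, 0 and 1 of all genes (0%, 0.00675%, 0% and 0.00681%). At an unadjusted p under 0.05 there were then 4, 4, 3 and 4 of the 10, beside 14.9%, 15.1%, 13.5% and 15% of all genes. DESeq2 then called 2, 3, 2 and 3, where it called 6.01%, 7.04%, 4.78% and 5.23% of all genes.

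The balance of proteases and inhibitors was described within each library, with no test. The 7 proteases summed to 92.8 ± 14.2 FPKM in HCC and 198 ± 50.0 FPKM in TAE, and the 3 inhibitors to 217 ± 31.7 and 273 ± 45.3 FPKM (SD, n = 3 per group). The ratio of the sums was 0.448, 0.446 and 0.389 in HCC replicates 1 to 3 and 0.718, 0.513 and 0.993 in TAE replicates 1 to 3. All TAE ratios were above all HCC ratios, and the summed inhibitors exceeded the summed proteases in every library, narrowly so in TAE replicate 3. The mean log2 ratio was 0.74 higher in TAE, 0.98 without TAE replicate 2 and 0.51 without TAE replicate 3. Within the protease sums, Mmp2, which did not pass in edgeR, had means of 17.5 FPKM in HCC and 72.4 FPKM in TAE. The ratio without Mmp2 was not computed. The ratio of Mmp12 to Timp1 was 0.0460, 0.0332 and 0.0292 in HCC and 0.0897, 0.0858 and 0.168 in TAE, and it too was apart between groups. That of Mmp14 to Timp2, the partners in activating Mmp2, was 0.737, 0.853 and 0.752 in HCC and 1.00, 0.620 and 0.638 in TAE. For this pair the groups overlapped, since 2 TAE libraries were below and 1 was above the HCC range.

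**Figure D3:**
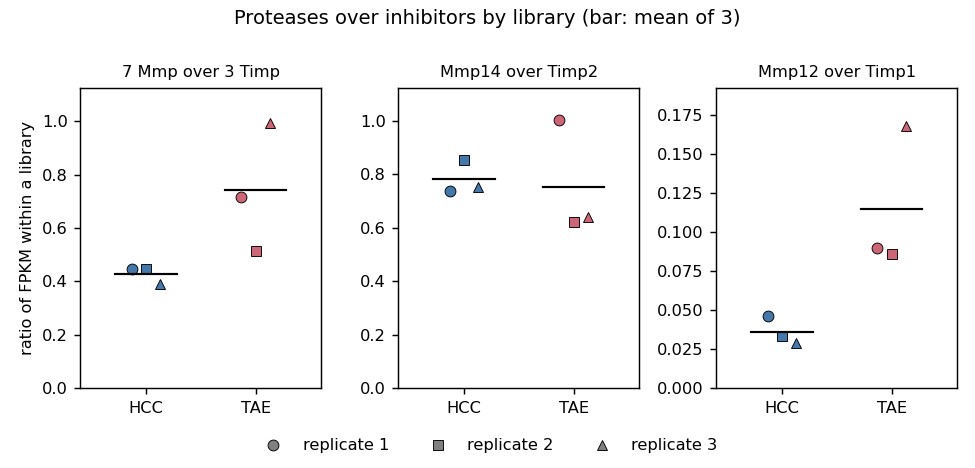
Ratios of FPKM within each library for all 7 proteases over all 3 inhibitors, Mmp14 over Timp2 and Mmp12 over Timp1, with a bar at the mean of 3 and axes from 0. The first and the last are higher in all TAE libraries (0.513 to 0.993 and 0.0858 to 0.168), whereas Mmp14 over Timp2 ranges from 0.620 to 1.00 in TAE around the HCC values.

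Along the chromosome 8 cluster, levels differed widely between neighbours. Besides the 4 genes above, Mmp10 and Mmp8 had enough counts to be tested. Mmp10, a stromelysin close to Mmp3, stood at 0.20, 0.26 and 0.08 FPKM in HCC and 0.44, 1.95 and 0.53 FPKM in TAE (log2 change 2.29, edgeR adjusted p = 0.118). It was highest in TAE replicate 2, as was Mmp3. Mmp8, the neutrophil collagenase, stood at 0.31, 0.40 and 0.35 FPKM in HCC and 1.24, 0.40 and 2.05 FPKM in TAE (log2 change 1.81, edgeR adjusted p = 0.168), with TAE replicate 2 at the HCC level. Mmp1b and Mmp27 had no read in any library, which allows up to 0.181 and 0.112 FPKM (3 reads per library, counting error only), and Mmp1 and Mmp20 had 1 and 6 reads over all libraries. Mmp12 and Mmp13 lie side by side with the same motifs, and their log2 changes were 1.71 and -0.31.

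**Figure D4:**
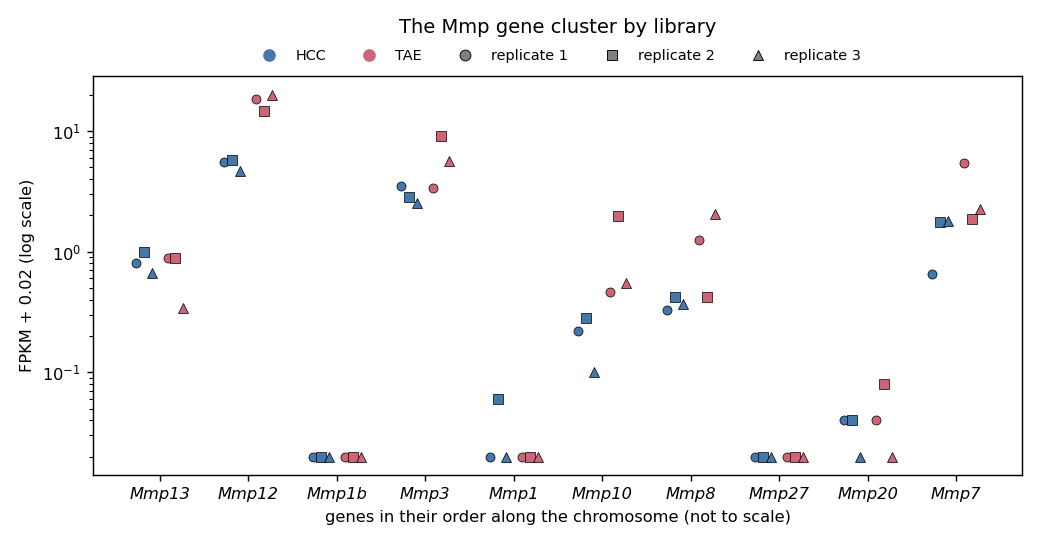
FPKM plus 0.02 on a log scale for the 10 genes of the cluster in their order along chromosome 8, with blue for HCC, red for TAE and marker shapes for replicates. Mmp12 is the most abundant gene and is apart between groups, Mmp13 beside it overlaps, and points on the lowest line are libraries at 0 FPKM for that gene.

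Cell type markers moved with several of these genes, and their part in the results was not tested. In bulk tissue, more cells of a type and more RNA per cell cannot be told apart. Relative to the HCC mean, on the log2 scale, Mmp12 stood at 1.80, 1.47 and 1.92 in TAE replicates 1, 2 and 3, and the sum of 8 macrophage markers stood at 2.09, 1.71 and 2.17. That sum was 1060 to 1305 FPKM in HCC and 3783 to 5206 FPKM in TAE, 6 of its 8 genes passed as higher in edgeR and all 8 in DESeq2, and none was at 0. Most of it was Lyz2 (mean 801 FPKM in HCC and 3226 in TAE) and Gpnmb (173 and 882). Taken singly, the log2 changes of the 8 genes ran from 1.11 to 3.37 with a median of 1.68, beside 1.71 for Mmp12. The sum of the 5 Kupffer cell markers in the table, which mark the resident macrophages of liver, was 273 to 354 FPKM in HCC and 160 to 464 FPKM in TAE, and none of the 5 passed in edgeR or DESeq2 (0 had an unadjusted p under 0.05). Mmp2 stood at 2.10, 1.12 and 2.57 in the TAE libraries, and the sum of 8 stellate cell and fibroblast markers at 2.17, 1.03 and 1.47. That sum was 176 to 284 FPKM in HCC and 436 to 957 FPKM in TAE, with 1 of its 8 genes passing as higher in edgeR, all 8 called by DESeq2 and none at 0. Both Mmp2 and this sum were lowest in TAE replicate 2, but the highest library was replicate 3 for Mmp2 and replicate 1 for the sum. The largest parts of the sum were Postn, Dcn and Acta2. Pdgfra, Pdgfrb, Dcn, Lrat and Postn were also highest in replicate 1 and lowest in replicate 2. Lum, the marker that passed, was highest in replicate 3 (80.5, 45.1 and 85.4 FPKM in TAE). Acta2 (196, 92.4 and 61.0 FPKM) and Des (43.5, 24.7 and 23.2 FPKM) were lowest there. The 7 neutrophil markers summed to 28.4 to 58.7 FPKM in HCC and 58.9 to 141 FPKM in TAE, with Camp and Ltf at 0 in some libraries. Of the 4 that could be tested none passed in edgeR, DESeq2 called 1 and 3 had an unadjusted p under 0.05. Summed endothelial markers were 43.5 to 52.4 FPKM in HCC and 49.6 to 74.1 FPKM in TAE, and cholangiocyte markers 14.0 to 18.1 and 18.6 to 42.6 FPKM, with 1 of 5 cholangiocyte and none of 6 endothelial markers passing in edgeR and 2 and 0 in DESeq2 (3 and 2 had an unadjusted p under 0.05). For the 6 T and B cell markers the sums were 92.1 to 132 and 202 to 324 FPKM. None of them passed in edgeR, DESeq2 called 3 and 3 had an unadjusted p under 0.05. Most of that sum was Cd8a (mean 66.4 FPKM in HCC and 161 in TAE) and Cd4 (28.5 and 72.0), whereas the T cell receptor subunit Cd3e stood at 12.2 ± 2.95 and 13.3 ± 4.76 FPKM (SD, n = 3 per group). The sum of hepatocyte markers stood at -1.04, -1.43 and 0.04 in the TAE libraries, an order that Timp1, at 0.45, 0.19 and -0.34, did not share. Most of that sum was Alb (mean 14272.5 FPKM in HCC and 9190.1 in TAE). The other hepatocyte markers had the same order except Tat. It stood at 65.7, 30.9 and 51.1 FPKM in TAE, highest in replicate 1 as Timp1 was, but lowest in replicate 2.

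**Figure D5:**
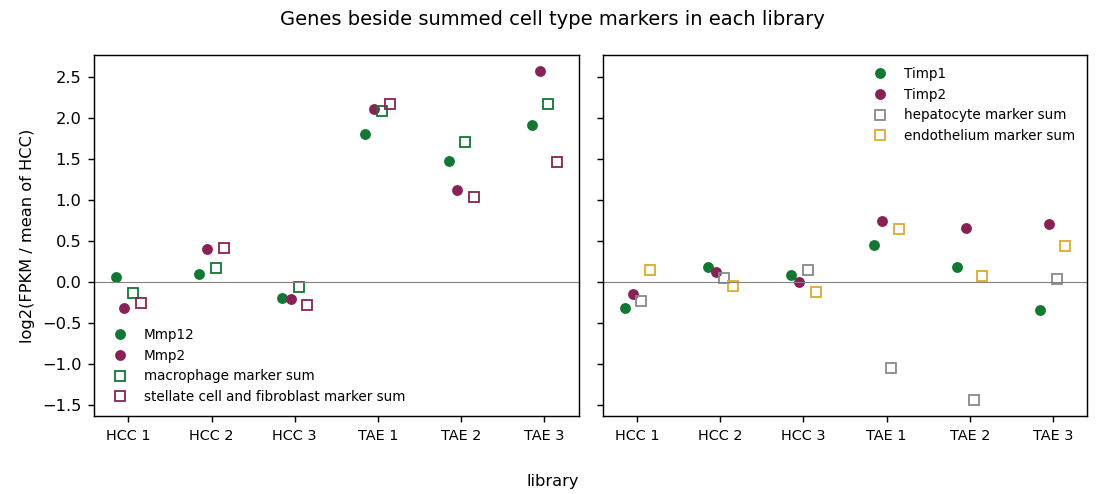
Log2 of FPKM over the HCC mean in each of the 6 libraries for Mmp12 and Mmp2 beside summed macrophage and stellate cell markers (left) and for Timp1 and Timp2 beside summed hepatocyte and endothelial markers (right). On the left all TAE points lie between 1.03 and 2.57, and on the right Timp2 lies at 0.66 to 0.74 while hepatocyte markers range from -1.43 to 0.04.

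Of the other family genes, 16 were listed, 14 were in the table and 9 could be tested. None passed in edgeR (7 had an unadjusted p under 0.05, as had 22.7% of all genes tested), 8 of the 9 log2 changes were positive, and their median was 1.21. Mmp9, the gelatinase of neutrophils and macrophages, stood at 0.55, 1.49 and 0.79 FPKM in HCC and 17.5, 2.85 and 4.51 FPKM in TAE. TAE replicate 1 was far above the rest, and the log2 change was 3.08 ± 0.75 (edgeR adjusted p = 0.0712). Mmp23, a membrane-anchored member without the usual propeptide switch, stood at 2.54, 3.43 and 3.15 FPKM in HCC and 14.1, 5.67 and 7.21 FPKM in TAE (log2 change 1.51 ± 0.37, edgeR adjusted p = 0.0718). Timp4 had too few reads to be tested. DESeq2 called 5 of these genes and edgeR without TAE replicate 2 called 6.

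Among 17 genes that activate or clear metalloproteinases, Plau alone passed, as higher. The other 16 did not pass, 8 of the 17 log2 changes were negative, and the median was 0.03. In FPKM, all TAE libraries were below all HCC libraries for 2 genes, Pcsk6 and Bsg (log2 change -0.53 and -0.19, edgeR adjusted p = 0.240 and 0.477), and above them for 3. Of all 14499 genes tested, 803 were apart and lower in FPKM, and 21.9% were apart and higher. Whether Pcsk6 and Bsg stay apart with TMM-scaled counts is not given here. Plau, the urokinase that turns plasminogen into plasmin, rose from 11.0, 9.72 and 7.58 FPKM in HCC to 44.3, 25.0 and 34.6 FPKM in TAE, with no overlap between groups. Its log2 change was 1.84 ± 0.27 (edgeR adjusted p = 0.0388). Plg, which encodes plasminogen and is made by hepatocytes, stood at 379 ± 13.2 FPKM in HCC and 297 ± 174 FPKM in TAE (SD, n = 3 per group). Prothrombin, encoded by F2, stood at 424 ± 18.7 and 331 ± 222 FPKM. For both, TAE replicate 3 was above and the other TAE libraries were below all HCC libraries. DESeq2 called 3 genes of this list.

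Of 14 ADAM and ADAMTS genes, related metalloproteinases that shed surface proteins or cut proteoglycans, Adam8 alone passed. It is expressed by myeloid cells and rose from 2.47, 3.17 and 2.11 FPKM to 8.26, 7.36 and 8.19 FPKM (log2 change 1.58 ± 0.22, edgeR adjusted p = 0.0388). The other 13 did not pass, and the median of the list was 0.66. Adam17, the sheddase of tumour necrosis factor, stood at 29.2 ± 1.99 FPKM in HCC and 41.3 ± 3.12 FPKM in TAE (SD, n = 3 per group; edgeR adjusted p = 0.108), and Adam15 at 23.1 ± 1.44 and 25.8 ± 7.38 FPKM. DESeq2 called 6 genes of this list, and edgeR without TAE replicate 2 called 8.

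Of 18 transcription factors and cytokines known to induce metalloproteinase genes, 17 could be tested. Tgfb1 alone passed, from 28.2, 32.8 and 31.5 FPKM to 63.4, 59.7 and 55.0 FPKM (log2 change 0.89 ± 0.13, edgeR adjusted p = 0.0388). This cytokine drives matrix production by stellate cells. The median of the list was 0.07. Fosl1, a Fos family protein of AP-1, stood at 63.9, 69.7 and 71.5 FPKM in HCC and 34.9, 73.4 and 19.5 FPKM in TAE. TAE replicate 2 was near the HCC libraries and the other TAE libraries were below them, and its log2 change was -0.80 ± 0.36 (edgeR adjusted p = 0.240). Junb, another AP-1 subunit, stood at 56.3 ± 0.742 and 55.6 ± 10.4 FPKM (SD, n = 3 per group). For Fos the means were 2.30 ± 0.369 and 5.54 ± 0.822 FPKM (log2 change 1.23 ± 0.26, edgeR adjusted p = 0.0547), and for Jun 39.3 ± 1.03 and 49.9 ± 7.42 FPKM (log2 change 0.28 ± 0.11, edgeR adjusted p = 0.195). In both, all TAE libraries were above all HCC libraries in FPKM, and neither passed. Tnf had too few reads to be tested. The calls of Plau, Adam8 and Tgfb1 were lost in edgeR without HCC replicate 1, 2 or 3 or TAE replicate 1, with the same adjusted p values as Mmp12. EdgeR then called 0, 1, 0 and 1 of all genes. DESeq2 called Plau, Adam8 and Tgfb1 without any single library (adjusted p up to 0.000237, 0.000381 and 0.00270).

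Of 10 matrix proteins that metalloproteinases cut, 9 were in the table, none passed in edgeR (7 had an unadjusted p under 0.05, beside the same 22.7% of all genes), and 8 log2 changes were positive with a median of 1.27. Col3a1 stood at 242 ± 54.1 FPKM in HCC and 915 ± 489 FPKM in TAE (SD, n = 3 per group; edgeR adjusted p = 0.0520), and Col1a1 at 150 ± 61.4 and 541 ± 369 FPKM (edgeR adjusted p = 0.0964). Both encode fibrillar collagens and were highest in TAE replicate 1. DESeq2 called 7 genes of this list, and edgeR called 7 without TAE replicate 2 and 3 without TAE replicate 3.

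The genes whose profile over the 6 libraries was most like that of a family gene were found among 8829 named genes with a mean of at least 5 FPKM, by the root mean square difference of centred log2(FPKM + 1), as a description. For Mmp12 they were Rab7b (0.0713), Itgam (0.0713) and Unc93b1 (0.0751). Itgam, an integrin chain of macrophages and neutrophils, stood at 5.77, 7.13 and 5.26 FPKM in HCC and 20.8, 17.2 and 22.6 FPKM in TAE. For Mmp14 they were Il15 (0.0586), Slc44a1 (0.0887) and Il4r (0.0894), each highest in TAE replicate 1. For Timp1 they were Praf2 (0.0691), Nrm (0.0761) and Slc39a13 (0.103), and for Timp3 Fchsd2 (0.0433), Zfp691 (0.0510) and Mrpl52 (0.0533), none of which passed.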

How the data were processed

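The authors deposited 1 table for all 6 libraries. Per the file headers, it gives each gene's raw read counts and FPKM. Scaling the counts to exon length and library total gave back 100% of the deposited FPKM values within 0.006. Per the labels' protocols, libraries were poly(A)-selected and strand-specific. The build is mRatBN7.2 per the submitters' processing notes, but the table has chromosome 1 genes up to 282724300, past the end of that chromosome, so the coordinates may be of another build. No source used here names the aligner or counting tool. Columns that belong to no sample of the series numbered 0.

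Counts were tested with edgeR 4.0.16 (R 4.3.3; TMM scaling, filterByExpr, quasi-likelihood test, no block). SE is the absolute log2 change divided by the square root of F. Alternatives were DESeq2 1.42.0, limma 3.58.1 on log2(FPKM + 1) or log2(FPKM + 0.1) at a mean of at least 0.5 FPKM, other scaling and filters, a replicate block, and leaving out each library. DESeq2 without single libraries was added after seeing the data. Scripts were tested on simulated data. The 10 genes, the 5 pathway lists and the 8 marker lists were chosen with earlier results of these data known. From each pathway list the text names the genes that passed and the 2 with the highest mean FPKM. Cluster neighbours, Timp4, Tnf, Fos, Jun, Pcsk6, Bsg, Lyz2, Gpnmb, Cd8a, Cd4, Cd3e and the overlapping genes were named after their values were seen. So were the single stellate cell and fibroblast markers, Alb and Tat. Mmp11, Mmp25, Hspg2 and Timd4 were listed but not analysed here.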

Additional observations from a re-analysis of the deposited data

How the results depend on the processing

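Counts of calls moved widely with the test and with single libraries. In the order of all genes, the 10 family genes and the 5 pathway lists together, edgeR called 437, 1 and 3. DESeq2 called 1763, 3 and 23, edgeR without a filter on low counts 829, 3 and 10, limma on log2(FPKM + 1) 701, 3 and 6, and limma on log2(FPKM + 0.1) 709, 3 and 6. Leaving out 1 library gave 0 to 3569, 0 to 6 and 0 to 32 with edgeR, the most without TAE replicate 2. DESeq2 called 890, 2 and 12 without HCC replicate 1, 1043, 3 and 19 without HCC replicate 2, and 709, 2 and 12 without HCC replicate 3. With a TAE library left out it called 767, 3 and 12 (replicate 1), 4234, 7 and 35 (replicate 2) or 2130, 3 and 22 (replicate 3). The number of family genes whose groups did not overlap was 6, all higher in TAE, as were 21.9% of the genes tested. With TMM-scaled counts it was 3, beside 18.6%. Without single libraries it was 6 to 7 in FPKM. Leaving out a library cannot lower this number, and no share over all genes was computed for it, so the range does not show stability. The log2 ratio of proteases to inhibitors, 0.74, was 0.69 to 0.75 in 3 other settings and 0.51 to 0.98 without single libraries. Those 3 settings left out Timp3, left out Mmp12 or used read counts. None left out Mmp2, so they do not show how far the ratio rests on that gene. The log2 change of Timp1 was -0.10 to 0.21 without single libraries, turning to -0.08 and -0.10 in edgeR, and -0.071 and -0.11 in DESeq2, without HCC replicate 1 and TAE replicate 1. No other change among the 10 genes turned sign. The cause of these shifts was not tested. With the replicate number as a block, edgeR called 0, 0 and 0 (2984 genes and 3 of the 10 at an unadjusted p under 0.05). The labels do not say that equal numbers pair libraries, and with 3 libraries per group the values cannot decide it. Deviations of same-numbered libraries correlated at 0.10, -0.21 and 0.03, and 1 of 6 libraries was closest to its own number. Genes near 1 FPKM, such as Mmp13 and Mmp7, rest on few reads.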
